A study of Mus musculus with 4 samples.

Results

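Foxp3, Ikzf2, Ikzf4, Ctla4, Nrp1, Lrrc32 and Gpr83 are 7 genes by which regulatory T (Treg) cells are recognized. They were taken by name from the expression table, and each name matched a single row, so they make up 7 of the 24418 genes listed and of the 13945 with a read in at least 1 library. All 7 passed the filter on low values. None of the 7 was called between Treg cells given TSLP and those given PBS. Larger differences were found between the PBS libraries, where Foxp3, Ikzf2 and Ikzf4 were lower in PBS 1 than in PBS 2, Gpr83 was higher, and Ctla4, Nrp1 and Lrrc32 lay within 1.19-fold. Such differences were common, since 23.1% of all genes tested were at least 1.5-fold lower in PBS 1 than in PBS 2. A further 19.3% were at least 1.5-fold higher.

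Treg cells restrain other immune cells and are found in lymphoid organs and in barrier tissues such as the intestine. Their identity rests on the transcription factor Foxp3, which acts together with other DNA-binding proteins, among them the Ikaros family members Helios and Eos. The receptors Ctla4, Nrp1, Lrrc32 and Gpr83 are much more abundant on Treg cells than on most conventional T cells.

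The study asked which genes respond in Treg cells to thymic stromal lymphopoietin (TSLP), an epithelial cell-derived cytokine. Treg cells from spleen and lymph nodes of Foxp3YFP-Cre mice received TSLP (100 ng/mL) or PBS for 3 h. RNA was sequenced from 2 samples per group (PBS 1 and PBS 2, TSLP 1 and TSLP 2). Both groups carry the same allele, in which a yellow fluorescent protein and Cre recombinase are placed in the Foxp3 locus, and no other allele is named for them. The mice of the study were sex-matched and 8 to 12 weeks old, although neither age nor sex is given for these samples. CD4 cells were enriched with magnets and then sorted after staining for CD4 and with 7-AAD, which marks dead cells. The fluorescent protein reports the Foxp3 locus, so a gate on it chooses cells through Foxp3 itself. The labels do not say whether the 2 samples of a group came from separate animals or cultures, so the p-values measure only the spread between these samples, which may be technical. The libraries held 10271571 to 11761234 reads on genes, and a gene without a read could still have 3, that is 0.255 to 0.292 cpm (reads scaled to the same total on genes in each library), where only counting error is considered.

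The labelled cell type was checked first. The T cell genes Cd4, Cd3d, Cd3e, Cd3g, Cd2, Cd5, Thy1 and Ptprc were all read, and their sum was 5556 cpm in PBS 1 and 5342 in PBS 2, and 5385 in TSLP 1 and 5652 in TSLP 2. The 7 lineage identity genes summed to 3706, 4333, 4389.8 and 4348 cpm in the same order. Markers of other cells were scarce. CD8 T cell genes (Cd8a and Cd8b1, both read) came to 13.4, 7.83, 8.84 and 11.97 cpm, with Cd8b1 the most abundant. The 4 B cell genes Cd22, Cd79a, Cd79b and Ms4a1 had a read in some library, led by Cd79b, and came to 2.82, 10.5, 4.08 and 10.3 cpm, while Ms4a1 was at 0 in 3 of the 4 libraries. Of 6 myeloid genes 5 had a read, led by Cd68, and they came to 17.7, 11.9, 8.67 and 8.76 cpm with Adgre1 at 0. NK cell genes stayed at or under 2.82 cpm with Ncr1 at 0, and erythroid genes at or under 1.5 cpm with the 4 globin genes at 0. The part of these small differences in the results below was not tested.

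Set against exon length, the 7 genes covered a wide range of levels. Levels are given here as rpkm (cpm per kilobase of exon), with the mean and SD over the 4 libraries. Ctla4, an inhibitory receptor that competes with CD28 for its ligands, had the highest level with 523 ± 26.9 rpkm (SD, n = 4). Lrrc32, also known as GARP, which holds latent TGF-β on the cell surface, followed with 307 ± 10.7 rpkm (SD, n = 4). These 2 genes held the first and second place in every library, and their ranges did not overlap. Foxp3 came next with 85.8 ± 25.7 rpkm (SD, n = 4), together with Ikzf2, which encodes Helios, with 75.2 ± 17.6 rpkm (SD, n = 4). These neighbours did not differ beyond their spread, since Foxp3 was the third in PBS 2, TSLP 1 and TSLP 2 and the fourth in PBS 1. Ikzf4, which encodes the Foxp3 partner Eos, lay at 21.9 ± 7.11 rpkm (SD, n = 4). Nrp1, a receptor for semaphorins and VEGF that marks many thymus-derived Treg cells, lay at 11.8 ± 1.21 rpkm (SD, n = 4). The ranges of Ikzf4 and Nrp1 overlapped, because Ikzf4 was at 12.1 rpkm in PBS 1. Gpr83, a G protein-coupled receptor, had the lowest level of the 7 in each library with 4.996 ± 1.88 rpkm (SD, n = 4).

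The genes differed in how much their level varied among the libraries. The coefficient of variation (SD over mean of the rpkm) was 37.6% for Gpr83, 32.5% for Ikzf4, 30.0% for Foxp3 and 23.4% for Ikzf2. It was 10.2% for Nrp1, 5.14% for Ctla4 and 3.49% for Lrrc32. Without PBS 1 it came to 10.6% for Gpr83, 14.0% for Ikzf4, 8.25% for Foxp3 and 2.23% for Ikzf2. Thus 4 of the genes varied widely with PBS 1 in the set, and Ctla4 and Lrrc32 varied little with or without it.

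Foxp3, the lineage-defining transcription factor (chromosome X, 7573644 to 7595245, plus strand, GRCm38), had a normalized count of 2437 in PBS 1 and 5068 in PBS 2, and 4507 in TSLP 1 and 5041 in TSLP 2. Normalized counts are the reads on a gene divided by the size factor of the library. PBS 1 stood alone at the low end, and PBS 2 was as high as the TSLP libraries, so that the groups overlapped. The group means were 3752 ± 1860.3 with PBS and 4774 ± 378 with TSLP (SD, n = 2 each). The log2 fold change, TSLP against PBS on the log2(normalized count + 1) scale, was 0.44 with an SE of 0.33 and a 95% interval from −0.30 to 1.18. By limma with Benjamini-Hochberg adjustment the adjusted p was 0.9999, as it was for each of the other 6 genes, and the unadjusted p of Foxp3 was 0.211.

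Ikzf2 (chromosome 1, 69531214 to 69687245, minus strand) had a normalized count of 6234 in PBS 1 and 10473 in PBS 2, and 11036.5 in TSLP 1 and 10227 in TSLP 2. Again PBS 1 was the lowest, and PBS 2 lay between the TSLP libraries. The log2 fold change of Ikzf2 was 0.39 with an SE of 0.29 and an interval from −0.26 to 1.05, and its unadjusted p by limma was 0.205. Ikzf4 (chromosome 10, 128630843 to 128645991, minus strand) had a normalized count of 798 in PBS 1 and 1873 in PBS 2, and 1576 in TSLP 1 and 1449.5 in TSLP 2. Its PBS libraries were the lowest and the highest of the 4, with both TSLP libraries between them. The log2 fold change of Ikzf4 was 0.31 with an SE of 0.36 and an interval from −0.51 to 1.12, and its unadjusted p by limma was 0.418.

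Among the receptors, Ctla4 (chromosome 1, 60887000 to 60915832, plus strand) had a normalized count of 14097 in PBS 1 and 12251 in PBS 2, and 13275 in TSLP 1 and 13449.9 in TSLP 2. Its TSLP libraries lay between the PBS libraries, and its log2 fold change was 0.02 with an SE of 0.25. Lrrc32 (chromosome 7, 98489283 to 98502181, plus strand) had a normalized count of 15616.5 in PBS 1 and 15341 in PBS 2, and 16702 in TSLP 1 and 14909.9 in TSLP 2. Here the TSLP libraries were the highest and the lowest, with a log2 fold change of 0.03 and an SE of 0.25. The 95% intervals of these log2 fold changes ran from −0.53 to 0.58 for Ctla4 and from −0.54 to 0.60 for Lrrc32. Their unadjusted p-values by limma were 0.924 and 0.914.

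Nrp1 (chromosome 8, 128358604 to 128503363, plus strand) had a normalized count of 1078 in PBS 1 and 1281 in PBS 2, and 1322 in TSLP 1 and 1341 in TSLP 2. It was the 1 gene of the 7 whose groups did not overlap, and both TSLP libraries were higher, which 14.5% of the 11392 genes tested showed in the same direction. The log2 fold change of Nrp1 was 0.18 with an SE of 0.22 and an interval from −0.33 to 0.69, and its unadjusted p by limma was 0.442. The exact two-sided permutation test of 2 against 2 libraries gave a p of 0.333 for Nrp1, which is the smallest that this design allows. Gpr83 (chromosome 9, 14860210 to 14870789, plus strand) had a normalized count of 434 in PBS 1 and 205 in PBS 2, and 220.4 in TSLP 1 and 249.8 in TSLP 2. PBS 1 was the highest and PBS 2 the lowest. Its log2 fold change was −0.35 with an SE of 0.42 and an interval from −1.29 to 0.60, and its unadjusted p by limma was 0.428.

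**Figure D1:**
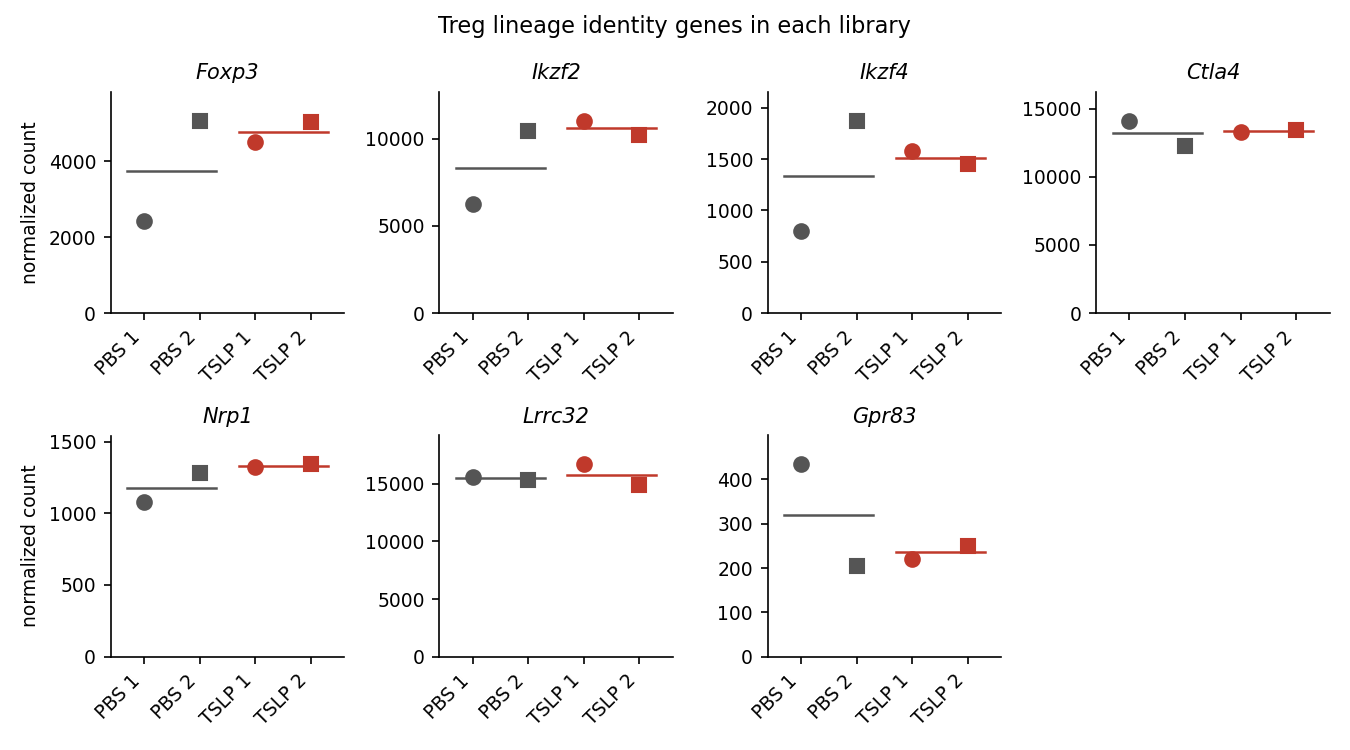
Normalized counts (vertical axes, linear from 0, each gene on its own scale) of the 7 lineage identity genes in PBS 1 and PBS 2 (grey) and TSLP 1 and TSLP 2 (red). Circles are replicate 1, squares are replicate 2 and lines are group means. Foxp3, Ikzf2 and Ikzf4 are lowest in PBS 1, Gpr83 is highest there, and Ctla4, Nrp1 and Lrrc32 lie close together.

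By limma with Benjamini-Hochberg adjustment 0 of the 7 genes had an adjusted p under 0.05, as did 0 of the 11392 genes tested (0%). At an unadjusted p under 0.05 the count was also 0 of 7, where 1.69% of all genes tested were called. edgeR's quasi-likelihood test and DESeq2 on the recovered reads called 0 of the 7 genes as well, with unadjusted p-values from 0.246 to 0.936 by edgeR and from 0.185 to 0.922 by DESeq2 (2.05% of all genes were under 0.05 by either tool). The log2 fold change was above 0 for 6 of the 7 genes and 51.2% of all genes. The median was 0.18 for the 7 genes and 0.01 for all genes tested. Removal of a trend over exon length, described below, moved the log2 fold change to 0.22 for Ikzf2, 0.05 for Nrp1, 0.15 for Ctla4 and 0.04 for Lrrc32. It was then 0.46 for Foxp3 (unadjusted p by limma 0.119), 0.27 for Ikzf4 and −0.34 for Gpr83, and 0 of the 7 were called.

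Which PBS library was kept decided the size and, for several genes, the sign of the difference. Without PBS 1 the log2 fold change, TSLP against PBS, was −0.09 for Foxp3, 0.02 for Ikzf2, −0.31 for Ikzf4, 0.06 for Nrp1 and 0.19 for Gpr83. None of the 7 genes had an unadjusted p under 0.05 by limma then (3.34% of the 11079 genes tested had one), and the signs for Foxp3, Ikzf4 and Gpr83 were the opposite of those with all 4 libraries. Without PBS 2, with the lone PBS 1 assumed to vary like the TSLP group, it was 0.97 for Foxp3, 0.77 for Ikzf2, 0.92 for Ikzf4 and 0.30 for Nrp1. Foxp3, Ikzf2 and Ikzf4 then had an adjusted p under 0.05 by limma, while 7.98% of the 10958 genes tested in that fit were called. At an unadjusted p under 0.05 the count was 4 of 7, with Gpr83 (−0.89) as the fourth, against 21.6% of all genes in that fit.

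**Figure D2:**
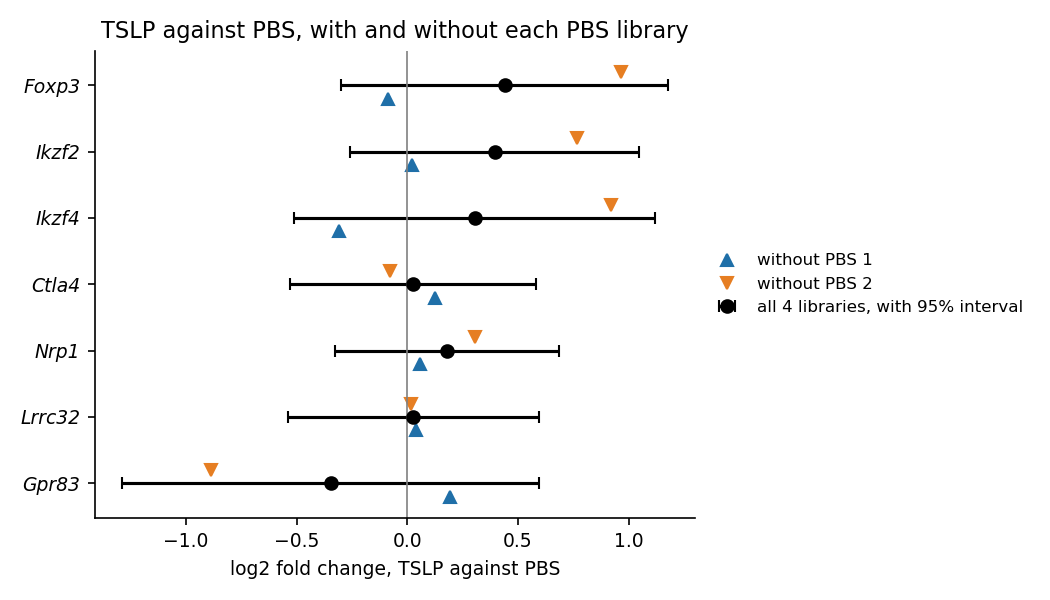
Log2 fold change, TSLP against PBS (horizontal axis), of the 7 lineage identity genes. Black circles with bars are the values and 95% intervals with all 4 libraries, and triangles are the values without PBS 1 (blue, pointing up) or without PBS 2 (orange, pointing down). All 7 intervals include 0, and for Foxp3 the value goes from −0.09 without PBS 1 to 0.97 without PBS 2.

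The next question was which of the genes share the low Foxp3 of PBS 1. For each gene the log2 value in PBS 1 was set against the mean of the log2 values in the other 3 libraries. This log2 ratio describes 1 library and carries no test. A gene was counted as low when PBS 1 was the lowest of the 4 libraries and at least 1.5-fold under that mean. Foxp3 itself had a log2 ratio of −0.997. Ikzf4 (−1.02) and Ikzf2 (−0.76) were low as well, which makes 3 of 7 with Foxp3, the gene that posed the question, where 17.8% of all genes tested and 13.4% of the 6771 genes with a mean normalized count of at least 200 were low. A log2 ratio in PBS 1 at or below that of Foxp3 was found for 3.41% of the abundant genes, and at or above that of Gpr83 for 1.905%. With PBS 2, TSLP 1 or TSLP 2 in the place of PBS 1, 2.97% to 3.57% of these abundant genes were low. Nrp1 had PBS 1 as its lowest library but missed the fold, with a log2 ratio of −0.29. Ctla4 (0.12) and Lrrc32 (−0.0015) did not share the low value. Gpr83 went the other way with a log2 ratio of 0.95, a height above 1.5-fold that 10.3% of the 6771 genes reached with PBS 1 as their highest library. In bulk samples fewer cells of a type and less RNA per cell cannot be told apart.

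The PBS libraries were also compared with each other. The ratio of the normalized count in PBS 1 to that in PBS 2 was 0.481 for Foxp3, with a 95% interval for counting error from 0.458 to 0.505. It was 0.426 for Ikzf4 (0.392 to 0.463), 0.595 for Ikzf2 (0.577 to 0.614) and 2.12 for Gpr83 (1.79 to 2.51). The TSLP libraries were closer to each other, since TSLP 1 and TSLP 2 differed by 1.12-fold in Foxp3, 1.08-fold in Ikzf2, 1.09-fold in Ikzf4 and 1.13-fold in Gpr83. The gap between the PBS libraries was the larger for 6 of the 7 genes, with Lrrc32 the exception, and for 66.3% of the 6771 abundant genes.

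The same can be read within a library, where scaling plays no part. For each 100 reads of Lrrc32 there were 15.6 reads of Foxp3 in PBS 1, against 33.0 in PBS 2, 27.0 in TSLP 1 and 33.8 in TSLP 2. Reads of Ikzf4 for each 100 of Lrrc32 were 5.11 in PBS 1 and 12.2 in PBS 2, and 9.44 in TSLP 1 and 9.72 in TSLP 2. Both transcription factors were therefore low in PBS 1 relative to a receptor of the same cells. The ratio of Foxp3 to Ikzf4 varied less, with 305 reads of Foxp3 for each 100 of Ikzf4 in PBS 1 and 271 in PBS 2, and 286 in TSLP 1 and 348 in TSLP 2. The ratio of Foxp3 to Gpr83 varied more, with 561 reads of Foxp3 for each 100 of Gpr83 in PBS 1 and 2471 in PBS 2, and 2044 in TSLP 1 and 2018 in TSLP 2.

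PBS 1 also differed from the other libraries with the length of genes, so each gene was set beside genes of like exon length. Over 2635 genes the Spearman rho of the log2 ratio with exon length was −0.659 for PBS 1, 0.571 for PBS 2, 0.400 for TSLP 1 and 0.307 for TSLP 2. Each library was set against the other 3 and across genes, which are not independent replicates. The mean used for PBS 2, TSLP 1 and TSLP 2 includes PBS 1, so their values partly mirror its own. Foxp3 (4577 bases of exon), Lrrc32 (4688) and Gpr83 (5095) fall among 1312 abundant genes of 4000 to 5500 bases, whose median log2 ratio in PBS 1 was 0.02 and of which 8.46% were 1.5-fold low. Within this narrow span of lengths the 3 genes had log2 ratios of −0.997, −0.0015 and 0.95. Ikzf4 (5995 bases) belongs to a class of 5500 to 9000 bases with a median of −0.17 and 16.5% low. Ikzf2 (11613 bases) and Nrp1 (9785 bases) belong to the class of 9000 bases and over, with a median of −0.42 and 36.5% low. Ctla4 (2330 bases) belongs to the class of 2000 to 4000 bases, with a median of 0.22.

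With the length trend of each library removed, the log2 ratio in PBS 1 was −1.0045 for Foxp3, −0.92 for Ikzf4 and 0.98 for Gpr83, and so nearly as before. It was −0.36 for Ikzf2, which no longer counted as low, and 0.03 for Nrp1, −0.19 for Ctla4 and 0.0003 for Lrrc32. Thus Foxp3 and Ikzf4 were low in PBS 1 with and without the length trend. Since Foxp3 posed the question, only Ikzf4 joined it, where 16.3% of all genes were low without the trend. A single gene among so few cannot be told from that share.

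**Figure D3:**
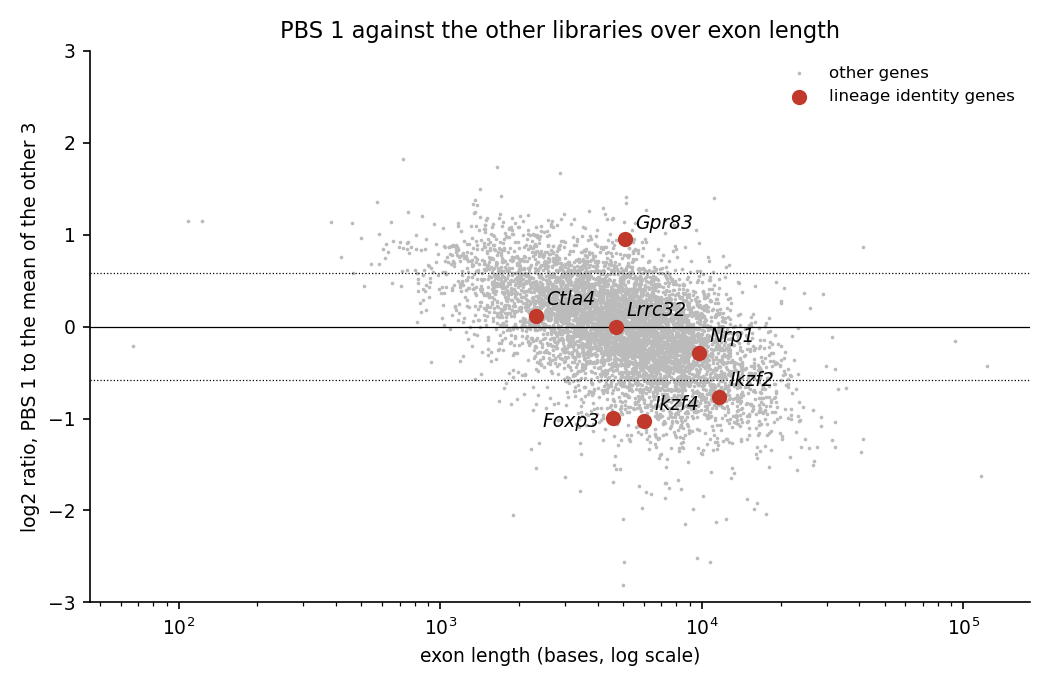
Log2 ratio of PBS 1 to the other 3 libraries taken as their mean (vertical axis) over exon length in bases (horizontal axis, log scale). Grey points are 6551 genes with a mean normalized count of at least 200 (3 lie outside the axis), red points are the 7 lineage identity genes and dotted lines mark 1.5-fold. The grey cloud falls with length. Foxp3 and Ikzf4 lie at its lower edge, Gpr83 at its upper edge, and Ikzf2 and Nrp1 inside it.

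The promoter sequences of a gene of each kind are shown, namely Foxp3, which was low in PBS 1, Ctla4, which was even, and Gpr83, which was high. Of the 7 genes, 4 were matched in the RefSeq promoters (GRCm38.p6), namely Foxp3 with 2 starts, Ctla4, Nrp1 and Gpr83. The 250 bases before a start are given 5′ to 3′ on the plus strand, for Foxp3 chrX:7580233-7580482 before its second start, for Ctla4 chr1:60908775-60909024 and for Gpr83 chr9:14859960-14860209. Capitals mark matches to any of 6 motifs.
Foxp3: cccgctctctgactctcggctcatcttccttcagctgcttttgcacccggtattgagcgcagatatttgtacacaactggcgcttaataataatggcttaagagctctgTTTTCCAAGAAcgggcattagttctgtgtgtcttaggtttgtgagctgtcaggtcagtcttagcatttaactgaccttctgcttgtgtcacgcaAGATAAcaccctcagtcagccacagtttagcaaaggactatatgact
Ctla4: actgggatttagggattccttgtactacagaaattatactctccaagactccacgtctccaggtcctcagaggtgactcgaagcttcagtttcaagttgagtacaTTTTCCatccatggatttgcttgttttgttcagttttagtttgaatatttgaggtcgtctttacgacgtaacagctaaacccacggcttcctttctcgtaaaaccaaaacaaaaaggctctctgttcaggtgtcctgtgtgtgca
Gpr83: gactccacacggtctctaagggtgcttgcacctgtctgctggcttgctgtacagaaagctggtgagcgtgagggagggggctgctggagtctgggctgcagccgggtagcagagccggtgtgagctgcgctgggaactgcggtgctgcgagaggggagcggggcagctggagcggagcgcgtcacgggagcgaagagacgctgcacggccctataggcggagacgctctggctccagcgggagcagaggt

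The motifs were searched on both strands. The STAT5 motif TTCNNNGAA, whose factor acts downstream of the TSLP and IL-2 receptors, was found in the Foxp3 window as TTCCAAGAA at −139, counted back from the start, and in 7.02% of 32851 RefSeq promoters of the same length. It overlaps a match on the minus strand to the NFAT motif GGAAAA at −141, which 20.4% of promoters hold and which Ctla4 also holds, at −145. The GATA motif AGATAA lies at −47 of Foxp3 and in 9.99% of promoters. None of the motifs was found in the Gpr83 or the Nrp1 window, and neither the forkhead motif TGTTTAC (3.17% of promoters) nor the RUNX motif TGTGGT (14.1%) in any of the windows shown. The TATA motif TATAAA, in 12.4% of promoters, was not in the windows shown either, but lies at −32 in the window before the other Foxp3 start, which is not shown because part of it is a Foxp3 exon. A match describes these letters only. The Foxp3 window shown lies inside an exon of the noncoding gene Flicr and outside the annotated Foxp3 exons.

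Some reads of Foxp3 could belong to its neighbours, since the strand setting of the counting is not given in the sources used here. Foxp3 shares 853 exon bases with Flicr on its own strand, 590 with Ccdc22, 373 with Gm36995 and 266 with Ppp1r3f, the last 3 on the opposite strand. Of the 50-base stretches in Foxp3 transcripts, 14.7% also occur in Flicr, which was not analysed here, and 12.9% in genes on the opposite strand. Ccdc22, a regulator of NF-κB signaling and endosomal recycling, had a normalized count of 289.8 in PBS 1 and 264 in PBS 2, and 145 in TSLP 1 and 185 in TSLP 2. It was lower in both TSLP libraries, with a log2 fold change of −0.75 and an unadjusted p by limma of 0.0716. Ppp1r3f, a regulatory subunit of protein phosphatase 1, had a normalized count of 271 in PBS 1 and 185 in PBS 2, and 203 in TSLP 1 and 242 in TSLP 2. Neither neighbour shared the low value of Foxp3 in PBS 1, with log2 ratios of 0.59 and 0.38. Further away, the synaptic vesicle gene Syp had a log2 ratio of 0.69, while Cacna1f, 2010204K13Rik and Gm14379 had at most 28 reads in any library. Of the 50-base stretches in transcripts of Ctla4, Lrrc32 and Gpr83, none occurs in another gene, and at most 0.53% of those of Ikzf2, Ikzf4 and Nrp1 occur on the same strand of another gene, and at most 0.819% on the opposite strand.

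The genes with the pattern closest to that of Foxp3 were sought among 4487 genes with a mean normalized count of at least 500, by the Euclidean distance between centred log2 values over the 4 libraries. The 5 closest were Trio, Cep192, Mdn1, Gltscr1 and St8sia1, with distances of 0.0566 to 0.0715 and log2 ratios in PBS 1 of −0.92 to −1.03. Trio had a normalized count of 375 in PBS 1 and 748 in PBS 2, and 701 in TSLP 1 and 765 in TSLP 2. The 4 of them with a known exon length had 9341 to 23395 bases, all more than Foxp3. Their log2 ratios in PBS 1 with the length trend removed were −0.22 for Trio, −0.28 for Mdn1, −0.575 for Cep192 and −0.63 for St8sia1, of which that of St8sia1 was still past 1.5-fold. Ikzf4 came at place 199 of the 4487 genes, Ikzf2 at 237, Nrp1 at 1142, Lrrc32 at 2277 and Ctla4 at 2680, while Gpr83 was under the level needed. Over 4 libraries such a likeness is a description only.

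Ikzf2 and Ikzf4 belong to the Ikaros family of zinc finger factors, whose 5 genes were all tested. Ikzf3, which encodes Aiolos, was also low in PBS 1, with a normalized count of 1516 in PBS 1 and 3482 in PBS 2, and 2342 in TSLP 1 and 2537 in TSLP 2, and a log2 ratio of −0.86. It was −0.59 with the length trend removed. Ikzf1, the family's namesake Ikaros, and Ikzf5 did not meet the fold, with log2 ratios of −0.28 and −0.06. Between TSLP and PBS, 0 of the 5 Ikaros genes had an unadjusted p under 0.05. In the Foxp family, Foxp1, a transcription factor of resting lymphocytes, had a log2 ratio of 0.13 in PBS 1, and of 0.62 with the length trend removed, by which it counted as high there.

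Factors that bind with Foxp3 or act on its locus made up a list of 31 genes, all tested. With TSLP 20 of them had a log2 fold change above 0 and 11 below 0, 0 had an unadjusted p under 0.05 by limma, and the median was 0.05. This median was −0.071 with the length trend removed and −0.0070 without PBS 1. The most abundant were Nr4a1 (log2 fold change −0.19) and Nr4a3 (0.16), nuclear receptors induced by antigen receptor signaling. The farthest from 0 were Rel (0.49), an NF-κB subunit needed for Foxp3 induction, and Foxo3 (0.45). Both were low in PBS 1, as was Tet2, a DNA demethylase, with log2 ratios of −0.92 for Rel, −1.11 for Foxo3 and −0.73 for Tet2. Thus 3 of 31 (9.7%) were low in PBS 1, where 17.8% of all genes tested were. Among genes with a mean normalized count of at least 200 the share was 13.4%. With the length trend removed Tet2 was at −0.14 and no longer low, while Rel (−0.71) and Foxo3 (−0.90) were.

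The list of 16 other Treg-enriched genes had 8 above 0 and 8 below 0 with TSLP, 0 with an unadjusted p under 0.05, and a median of 0.03. This median was 0.15 with the length trend removed and −0.0058 without TSLP 1. The most abundant were Il2rb (0.08), a chain of the IL-2 receptor, and Tnfrsf9 (−0.01), a costimulatory receptor. The farthest from 0 were Il10 (−0.50), an anti-inflammatory cytokine, and Entpd1 (0.47), an ectoenzyme that degrades ATP. In PBS 1, Itgae (−0.78), an integrin chain that binds E-cadherin, Entpd1 (−0.83) and Fgl2 (−0.63), a secreted inhibitor, were low. Izumo1r (0.62), also known as folate receptor 4, and Il10 (0.71) were high. With the length trend removed Itgae, Entpd1 and Fgl2 were still low, while Izumo1r (0.31) and Il10 (0.24) were no longer high. The genes for ligands and partners of the surface receptors were measured in 11 of 13 cases, with 8 above 0, 3 below 0, 0 with an unadjusted p under 0.05, and a median of 0.15. The most abundant were Cd28 (0.115) and Itgav (0.35). Itgb8, which with Itgav forms an integrin that releases TGF-β from Lrrc32, had a normalized count of 386 in PBS 1 and 982.5 in PBS 2, and 923 in TSLP 1 and 1042 in TSLP 2. With log2 ratios of −1.34 for Itgb8 and −0.69 for Itgav, both were low in PBS 1, together with Lrba (−0.88), which keeps CTLA-4 protein from degradation. With the length trend removed Itgb8 was still low (−0.97), but Itgav (−0.33) and Lrba (−0.22) were not. The difference farthest from 0 with TSLP was that of Cd80 (0.80), a ligand of CTLA-4, and it had 48 to 148 reads. Over these lists and the 7 genes together, 12 of 65 genes (18.5%) were low in PBS 1, where 17.8% of all genes tested were, and 3 of 65 (4.6%) were high, where 15.5% of all genes were. Among genes with a mean normalized count of at least 200, 13.4% were low and 10.3% high. With the length trend removed the count of low genes was again 12 of 65, beside 16.3% of all genes, but only 8 genes were low both ways. Ikzf2, Tet2, Itgav and Lrba dropped out, and Tigit, Ebi3, Cbfb and Stub1 came in. Only Gpr83 was then high, 1 of 65, beside 11.9% of all genes.

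**Figure D4:**
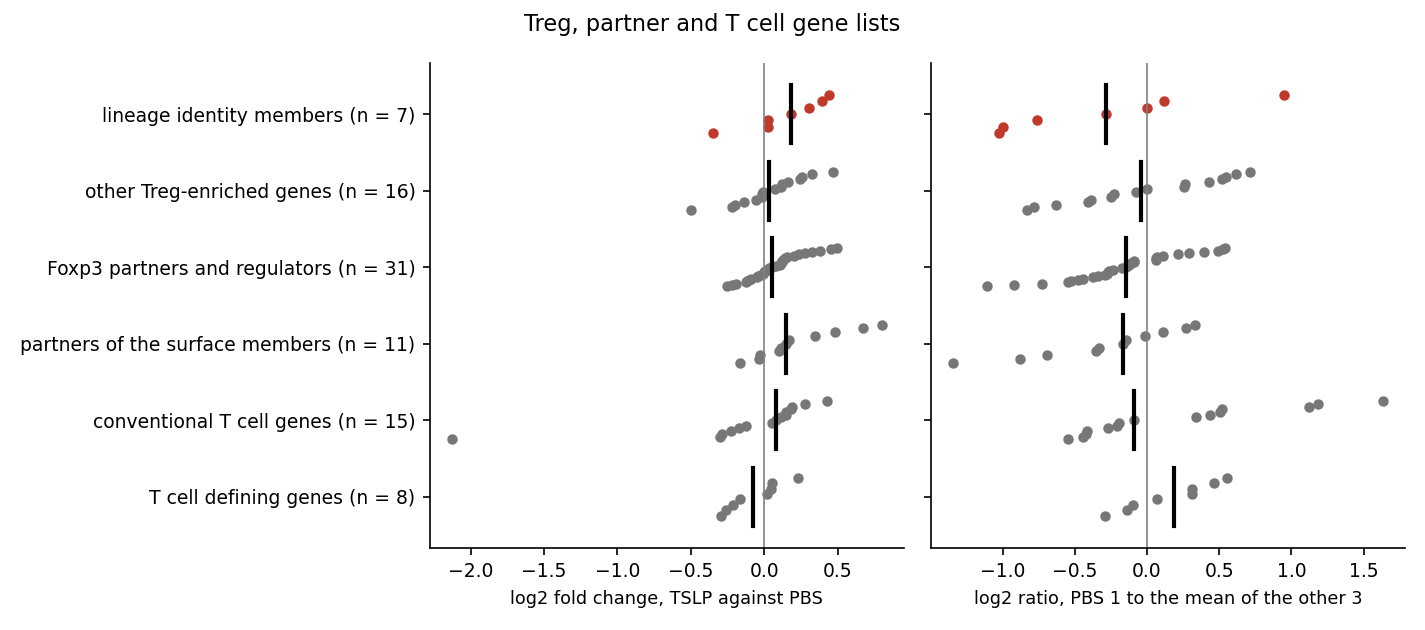
Log2 fold change, TSLP against PBS (left), and log2 ratio of PBS 1 to the other 3 libraries taken as their mean (right) of single genes (points) in 6 lists, with the number tested in parentheses. Black lines are list medians and red points are the 7 lineage identity genes, whose medians are 0.18 (left) and −0.29 (right).

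Conventional T cell genes were set beside the low Foxp3 of PBS 1. The 15 genes of this list, led by the chemokine receptor gene Ccr7, summed to 4487 cpm in PBS 1 and 4240.0 in PBS 2, and 4461 in TSLP 1 and 4161 in TSLP 2. The highest sum, in PBS 1, rested on Ccr7. The other 14 genes summed to 2393 cpm in PBS 1, the lowest of the libraries, and to 2706 in PBS 2, 2772 in TSLP 1 and 2669.9 in TSLP 2. The median log2 ratio of the list in PBS 1 was −0.09. With the length trend removed the log2 ratio of Ccr7 went from 0.43 to 0.07, and that of Satb1 from −0.09 to 0.56. Satb1 and Bach2 are also in the list of Foxp3 partners and regulators. Of the 15 genes 0 were low in PBS 1, and Ifng, the Th1 cytokine gene, was the 1 gene counted as high there with 151 reads against 52 to 86. After removal of the length trend 2 of the 15 were high, Ifng (0.70) and Lef1 (0.61, from 0.34), a transcription factor of naive T cells. Between TSLP and PBS, 9 were above 0 and 6 below 0 with a median of 0.08, and 0 had an unadjusted p under 0.05. This median was −0.025 with the length trend removed and 0.18 without TSLP 2. Ccr7 had a log2 fold change of −0.17 and Satb1, a chromatin organizer, of 0.11. Those farthest from 0 were Dapl1 (−2.13), which had 0 to 39 reads, and Cd40lg (0.43). Of the 8 T cell defining genes, 4 were above 0 and 4 below 0 with a median of −0.07, and 0 had an unadjusted p under 0.05. The most abundant were Ptprc (0.23) and Cd2 (−0.17), and the farthest from 0 were Cd3d (−0.29) and Cd3g (−0.26), chains of the T cell receptor complex. Genes read together with ribosomal RNA were also highest in PBS 1. Rn45s had a normalized count of 60681 in PBS 1 and 41226 in PBS 2, and 27899.7 in TSLP 1 and 40024 in TSLP 2. Lars2 had 5660.4, 2775, 1621 and 2205 in the same order, with an unadjusted p by limma of 0.0109 between TSLP and PBS. The part of these genes and of the conventional T cell genes in the low Foxp3 of PBS 1 was not tested.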

How the data were processed

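Per the labels, total RNA of Treg cells was made into directional libraries, and the submitters' processing notes name HISAT2, HTSeq, DESeq2 and mm10. Reads were 50 bases, single-end. The annotation and strand setting of the counting are not given in the sources used here. The authors deposited a signal: each gene's read count over a size factor of its library (0.957 to 1.06), with no pooling of replicates and no filter on low values. All values lay within 0.01 of whole reads (100%), so the reads were recovered. The libraries had 10271571 to 11761234 reads on genes, PCR copies included. Of the gene names, 27 had turned into dates.

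TSLP was compared with PBS by limma 3.58.1 (variance trend) on log2(normalized count + 1), over the 11392 genes that reached a normalized count of 10 in 2 or more libraries, two-sided, with Benjamini-Hochberg adjustment over all of them. On this scale the fold changes of genes with few reads come out too small. edgeR 4.0.16 and DESeq2 1.42.0 served as alternatives for the recovered reads (R 4.3.3). On these reads edgeR found 0 genes with an adjusted p below 0.05 and 234 with an unadjusted p below it. The procedure was tested on simulated data, but the outcome is not given here. Other alternatives were TMM and total scaling, pseudocounts of 0.5 and 5, no filter, removal of trends over exon length by lowess, a block for the replicate number, and leaving out each library. Intervals of ratios are 95% and cover counting error only.

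Exon lengths, positions and overlaps came from GENCODE M21 (GRCm38), which holds 23356 of the 24418 names, 23309 of them with a single exon length. Promoters came from RefSeq. The 7 genes, the lists and the comparison of PBS 1 were chosen with earlier results of these data known. Named besides the 7 are, per list, genes with an unadjusted p under 0.05, the 2 with the most reads, the 2 with the largest absolute log2 fold change, the markers of other cells with the most reads, the 5 genes closest to Foxp3 and the 3 on either side of it. Genes low or high in PBS 1, other overlapping genes and markers at 0 were named after their values were seen. A marker gene of the lists is left out and not reported here.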

Additional observations from a re-analysis of the deposited data

How the results depend on the processing

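With 2 libraries in each group, differences of the size seen here cannot be told from the spread between libraries. The 7 genes kept the sign of their log2 fold change, TSLP against PBS, under other tests, scalings, pseudocounts and filters, with 0 called. With the trends over exon length and GC content removed, a setting chosen after seeing the data, Nrp1 had −0.0041. Foxp3 had 0.51 in that setting, with an unadjusted p by limma of 0.0849. Removing the length trend moved the median of the other Treg-enriched genes from 0.03 to 0.15 (0.14 with GC). It moved that of the Foxp3 partners and regulators from 0.05 to −0.071 (−0.034 with GC). The median of the conventional T cell genes went from 0.08 to −0.025 (−0.036 with GC). The cause was not tested. Leaving out each library in turn gave 0 to 874 genes and 0 to 3 of the 7 at an adjusted p under 0.05, and a median of the 7 of 0.041 to 0.30. Without PBS 1 the signs of Foxp3 (−0.088), Ikzf4 (−0.31) and Gpr83 (0.19) were reversed, without PBS 2 that of Ctla4, and without TSLP 1 that of Lrrc32. The ranges were −0.088 to 0.97 for Foxp3, −0.31 to 0.92 for Ikzf4, −0.077 to 0.13 for Ctla4, −0.054 to 0.11 for Lrrc32, 0.056 to 0.30 for Nrp1 and −0.89 to 0.19 for Gpr83. The calls among the 7, of Foxp3, Ikzf2 (0.77) and Ikzf4, arose without PBS 2. That fit set PBS 1 alone against TSLP, so these calls restate the low values of PBS 1. The list medians ranged from −0.0058 to 0.082 for the other Treg-enriched genes (0 to 1 called), from −0.0070 to 0.12 for the Foxp3 partners and regulators (0 to 3), from 0.0023 to 0.38 for the partners of the surface receptors (0 to 3) and from 0.023 to 0.18 for the conventional T cell genes (0 called in each). The lone library left in a group was assumed to vary like the other group. The number at an unadjusted p under 0.05 was 192 in all, 427 with no variance trend, 358 with no filter on low values, and 109 to 2370 with a library left out. Deviations from the group means of same-numbered libraries had a correlation of 0.00072 across 11392 genes. The labels do not say whether same-numbered libraries belong together. A single correlation between libraries that differ in their length trends cannot decide it. A fit with the number as a block called 0 of the 7 genes and found 258 genes at an unadjusted p under 0.05.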

Other observations

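Of 197 genes on the X chromosome with a mean normalized count of at least 200, which share their chromosome with Foxp3, 37 (18.8%) were low in PBS 1. Among all genes at that level 13.4% were low, and the median log2 ratio of the X genes was −0.12. The share of the X genes was not computed with the trend over exon length removed. Of 4 Y-linked genes tested, Kdm5d and Uty were low in PBS 1, with log2 ratios of −1.10 and −0.75, but neither was with the trend over exon length removed (−0.56 and −0.44). Kdm5d had a normalized count of 317 in PBS 1 and 699 in PBS 2, and 689 in TSLP 1 and 655 in TSLP 2, while Uty had 1367, 2101, 2624 and 2205. Xist had 0 to 10 reads in each library. Ddx3y, a Y-linked RNA helicase, was read in all 4 libraries at 475 to 634 cpm. Its log2 ratio in PBS 1 was −0.31 and that of Eif2s3y was 0.06, so neither counted as low.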
